A study of Mus musculus with 12 samples.

Results

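Of 21887 protein-coding genes in RefSeq's GRCm38.p6 annotation, 38 belong to cholesterol and fatty acid metabolism and were taken by symbol. A sterol branch of 25 genes holds the enzymes of sterol synthesis, the proteins that control it and the sterol exporters. A fatty acid branch of 13 genes holds the enzymes of fatty acid synthesis, elongation and desaturation, with Srebf1 and Cpt1a. All 38 had at least 1 tested region over the gene span or within 5 kb of it, and these made up 96 of the 40909 regions that were tested for H3K9/14 acetylation, a histone mark of active promoters and enhancers.

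The KO group was 3 ChIP libraries of Th17 cells with the genotype Slc2a3-fl/fl Cd4-cre, and the WT group was 3 ChIP libraries of wild type Th17 cells. Cd4-cre is a transgene in which regulatory sequence of Cd4 drives Cre recombinase in developing T cells, so CD4 and CD8 lineages both delete a floxed gene, here the glucose transporter gene Slc2a3 (GLUT3). Whether WT cells carried Cd4-cre or floxed alleles, which exons are floxed, and how old the mice were are not stated in the labels. Cells of both groups were C57BL/6 CD4+ T cells that had been kept for 3 days in vitro under Th17 polarising conditions. They were then given PMA and ionomycin for 3 h together with Bref A and Monensin. The assay was RELACS, a form of ChIP-seq that barcodes the chromatin of each sample inside its nuclei, and all 6 samples were pooled for 1 immunoprecipitation with 5 µg of antibody. The 6 input samples were not analysed here. The labels do not say whether the replicates came from separate mice, so p-values measure only the spread between these libraries.

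Sterol synthesis begins with cytosolic acetyl-CoA, passes through mevalonate, isoprenoid units and squalene, and ends with cholesterol after a chain of demethylation, reduction and desaturation steps. Fatty acid synthesis starts from the same acetyl-CoA, which acetyl-CoA carboxylase turns into malonyl-CoA for fatty acid synthase, and elongases and desaturases then shape the chains. The SREBP transcription factors switch on both branches when sterols are low, after SCAP has escorted them out of the endoplasmic reticulum and INSIG proteins have let go, while LXR switches on the exporters when sterols are high. In Th17 cells the sterol branch has a further role, since sterol intermediates of the pathway are ligands of their lineage factor RORγt.

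The RefSeq promoter windows of GRCm38.p6, which run from upstream of an annotated start to just after it, matched 31 of the 38 genes with 40 windows. Fads1, Scd1, Fdps, Scd2, Abcg1, Sqle and Fdft1 had no window. The windows below are the ones that hold the letters of a sterol regulatory element (TCACNCCAC) or an E-box (CACGTG), both of which SREBPs can bind, limited to at most 2 genes per role. The acetylation region of each is described further on. They run 5′ to 3′ on the strand given, and capitals mark the matched letters.

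Hmgcs1 chr13:119690101-119690400 (+ strand): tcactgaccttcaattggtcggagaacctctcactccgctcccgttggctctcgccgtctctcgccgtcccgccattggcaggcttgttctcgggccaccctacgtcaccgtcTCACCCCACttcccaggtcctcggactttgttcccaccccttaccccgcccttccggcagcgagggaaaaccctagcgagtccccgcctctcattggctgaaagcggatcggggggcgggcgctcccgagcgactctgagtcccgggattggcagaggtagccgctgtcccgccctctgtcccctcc

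Hsd17b7 chr1:169969156-169969455 (- strand): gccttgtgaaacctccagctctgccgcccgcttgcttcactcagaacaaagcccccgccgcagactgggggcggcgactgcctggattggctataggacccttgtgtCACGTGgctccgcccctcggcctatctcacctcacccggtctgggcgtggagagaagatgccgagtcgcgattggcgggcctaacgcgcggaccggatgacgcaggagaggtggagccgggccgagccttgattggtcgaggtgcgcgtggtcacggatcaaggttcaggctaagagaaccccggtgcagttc

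Insig1 chr5:28071162-28071461 (+ strand): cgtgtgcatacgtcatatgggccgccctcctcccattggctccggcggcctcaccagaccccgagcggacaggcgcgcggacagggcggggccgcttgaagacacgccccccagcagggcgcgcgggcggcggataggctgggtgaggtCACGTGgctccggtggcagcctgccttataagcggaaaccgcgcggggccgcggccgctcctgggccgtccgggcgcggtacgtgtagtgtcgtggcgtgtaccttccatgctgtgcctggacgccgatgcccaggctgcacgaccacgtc

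Scap chr9:110333038-110333337 (+ strand): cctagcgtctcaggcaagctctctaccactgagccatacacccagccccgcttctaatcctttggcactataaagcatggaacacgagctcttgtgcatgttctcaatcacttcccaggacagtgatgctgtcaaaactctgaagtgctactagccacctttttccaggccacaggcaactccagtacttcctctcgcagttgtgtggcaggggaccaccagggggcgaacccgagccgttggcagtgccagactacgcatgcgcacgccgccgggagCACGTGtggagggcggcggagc

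Elovl5 chr9:77917115-77917414 (+ strand): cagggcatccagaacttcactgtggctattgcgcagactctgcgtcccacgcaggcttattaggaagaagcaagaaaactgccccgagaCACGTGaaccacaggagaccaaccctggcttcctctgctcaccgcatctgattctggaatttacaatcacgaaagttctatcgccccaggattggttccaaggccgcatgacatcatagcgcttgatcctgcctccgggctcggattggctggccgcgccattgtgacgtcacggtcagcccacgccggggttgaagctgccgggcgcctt

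In Hmgcs1 the matched element starts 137 bases before the annotated start, and the E-boxes start 143 bases before it in Hsd17b7, 101 in Insig1 and 161 in Elovl5. In Scap the E-box starts at base 29 after the start. Both strands were searched, and no letters of 1 motif contain those of another. TCACNCCAC was found in 1 of the 40 windows, that of Hmgcs1, and in 1.24% of all 32851 windows of that length. CACGTG was found in 8 of the 40 windows, belonging to 7 genes (Abca1, Dhcr7, Sc5d and the 4 above), and in 7.15% of all windows. The 2 windows of Scap overlap and hold the same E-box. CCAAT, the letters of NF-Y, were in 24 of the 40 windows and 37.4% of all. GGGCGG, the letters of Sp1, were in 29 of the 40 windows and 35.7% of all. The direct repeat known from LXR, AGGTCA written a second time after a gap of 4 bases, was in 0 of the 40 windows and 0.0152% of all. A match describes letters in a window and shows no binding.

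Depth was lower in KO. From the heights of the peaks, mean coverage by fragments came to 1.85 to 2.29 in the KO libraries and 2.97 to 3.99 in the WT libraries, and peaks covered 53.7 to 58.4 Mb in KO and 65.2 to 70.5 Mb in WT. Slc2a3, the targeted gene, had 8 of 9 regions called lower in the authors' deposited table, and peaks within 5 kb of it covered 3822, 5427 and 6128 bp in the KO libraries, against 12507, 12443 and 12461 bp in the WT libraries. KO replicate 3 had 11 peaks on chromosome Y, while the other 5 libraries had 1 or 2. Peaks of 11 Th17 and T cell markers covered 137914 to 156591 bp in KO and 250379 to 280688 bp in WT, with 0 of the 11 bare in every library. Of B cell markers, Ms4a1 and Pax5 were at 0 in all libraries, peaks of Cd79a covered 5840 to 7022 bp in KO and 7402 to 8234 bp in WT, and those of Blnk 0 to 390 bp in KO and 326 to 2208 bp in WT. Peaks of CD8 T and NK cell markers (5 genes; Cd8a, Ncr1 and Klrb1c at 0 in all) summed to 1611 to 2210 bp in KO and 3183 to 4107 bp in WT. Myeloid markers (5 genes; Lyz2 at 0 in all) summed to 8009 to 9917 bp in KO and 13728 to 15022 bp in WT, and erythroid markers (4 genes; Hba-a1 and Hbb-bs at 0 in all) to 1336 to 1787 bp in KO and 2081 to 3204 bp in WT. All 4 hepatocyte and adipocyte markers, of tissues where these pathways run high, were at 0 in every library. The part of depth and of other cell types in the results was not tested.

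Acetylation at the ends of the lipid genes was called lower or not called in KO, and in no case higher. A gene-end region is one no more than 2 kb from an end of the gene, and a call is an FDR under 0.05 in the authors' deposited table, whose log2 fold change is that of the best 150 bp window of a region, KO over WT. Of 44 gene-end regions of these genes, 29 (65.9%) were called lower, 0 higher and 15 not called, while 55.3% of all 13154 gene-end regions were called lower and 6.17% called higher there. At an unadjusted p under 0.05 the count of higher regions was also 0 in the authors' deposited table, whose program neither the labels nor the notes name. Their median log2 fold change was -0.86, against -0.73 over all gene-end regions, in the authors' deposited table. The 27 sterol regions had 19 lower calls and a median of -0.78, and the 17 fatty acid regions had 10 lower calls and a median of -0.89, in the authors' deposited table. A lower value can mean fewer cells carrying the mark or less of it in each cell, which cannot be told apart here. It also depends on how the libraries were scaled, which is taken up further on.

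Counted by gene, 34 of the 38 had a gene-end region, and 24 of these (70.6%) had at least 1 called lower in the authors' deposited table, against 65% of all genes with such a region. None had 1 called higher, against 7.03% of all genes. A further 10 had none called, and 4 (Pmvk, Fdft1, Insig2 and Acacb) had no region at an end. Over all 96 regions, 47 were lower and 7 were higher by the calls of the authors' deposited table, against 45.9% lower and 12.1% higher for the regions of all genes within 5 kb, and 46.3% and 12.7% for all regions tested. At least 1 lower region was held by 26 of the 38 genes, against 71.3% of all genes with a region. Away from the ends, of 52 regions within 5 kb, 18 were called lower and 7 higher, against 38.4% and 16.8% of all such regions, in the authors' deposited table. The 7 higher regions belonged to 5 genes (Sqle, Lss, Abcg1, Elovl6 and Elovl7), or 13.2% of the 38 against 15.7% of all genes. Lss, Abcg1 and Elovl6 had regions called in both directions, as had 7.75% of all genes in the authors' deposited table.

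**Figure D1:**
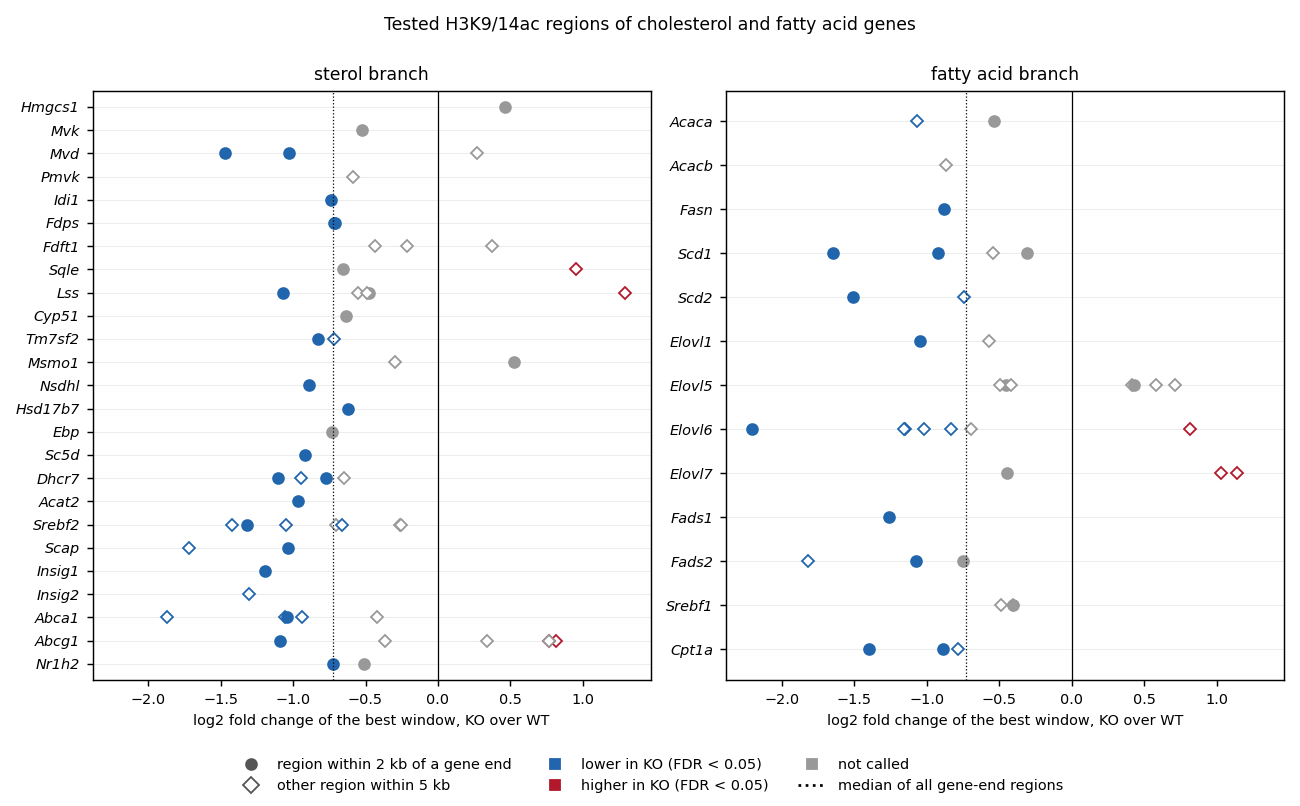
Log2 fold change (KO over WT) of every tested region of the 38 genes in the authors' deposited table, with filled circles for gene-end regions, open diamonds for other regions within 5 kb, and colour for the call. Filled circles are blue or grey and never red, the 7 red diamonds lie away from gene ends, and the dotted line is the median of all gene-end regions (-0.73).

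Within the gene-end regions the share of windows that went down varied. Among those called lower it ran from all windows, as in Scd2 (32 of 32), to 4 of 26 in Abcg1, in the authors' deposited table. Of 533 windows of 150 bp in the gene-end regions of these genes, 272 (51.0%) went down and 1 went up, against 38.5% down and 4.33% up over all gene-end regions, in the authors' deposited table. The windows that went down made up 42.3% in the sterol branch and 63.9% in the fatty acid branch of the authors' deposited table. Of 37 regions within 2 kb of an annotated start, 22 were called lower and 0 higher, against 56% and 5.2% over all genes, in the authors' deposited table. Another gene ends within 2 kb of 11 of the 44 gene-end regions, so these cannot be given to 1 gene. Of the 33 that belong to 1 gene alone, 22 (66.7%) were called lower, against 54.6% of all such regions, in the authors' deposited table.

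The length covered by peaks gives a value per library. Over the gene span and 5 kb to each side, peaks of the 38 genes covered 117799, 125372 and 116857 bp in the KO libraries, against 158120, 142369 and 143683 bp in the WT libraries. Every KO library lay below every WT library, with means of 120009 ± 4668 bp in KO and 148057 ± 8739 bp in WT (SD, n = 3 each, two-sided exact permutation p = 0.1, the smallest that 3 against 3 allows). Set over the WT mean, the KO mean was 0.811 for all 38 genes, 0.829 for the sterol branch and 0.782 for the fatty acid branch, against 0.846 for all protein-coding genes. As a share of all covered base pairs of a library, the lipid genes held 0.219%, 0.215% and 0.212% in KO and 0.224%, 0.218% and 0.216% in WT, and these shares overlapped (two-sided exact permutation p = 0.3, n = 3 each).

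Gene by gene, covered length was lower in every KO library than in every WT library for 21 of the 38 (55.3%), against 41.3% of all genes with a peak. It was higher in every KO library for 1, Elovl7, against 6.18% of all genes, and overlapped for the other 16. Without KO replicate 1 the higher genes numbered 2 (Sc5d and Elovl7), and without WT replicate 1 they numbered 4 (Sc5d, Abcg1, Elovl5 and Elovl7). The 21 were 12 sterol genes (Pmvk, Fdft1, Cyp51, Tm7sf2, Dhcr7, Acat2, Srebf2, Scap, Insig1, Insig2, Abca1 and Nr1h2) and 9 fatty acid genes (Acaca, Acacb, Fasn, Scd1, Scd2, Elovl6, Fads1, Fads2 and Cpt1a). A gene-end peak was present for 34, 34 and 33 of the genes in the KO libraries and for 35 in each WT library (two-sided exact permutation p = 0.1, n = 3 each). The mean difference, KO minus WT, was -1.33, and it shrank under other settings. With single-read peaks it was -1 (two-sided exact permutation p = 0.4), and with gene-end windows of 1 kb it was -0.333. In the sterol branch it was -0.333 under either of these settings. A gene-end peak was present in all 6 libraries for 33 genes, and 83.8% of all genes with such a peak in any library had it in all 6.

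**Figure D2:**
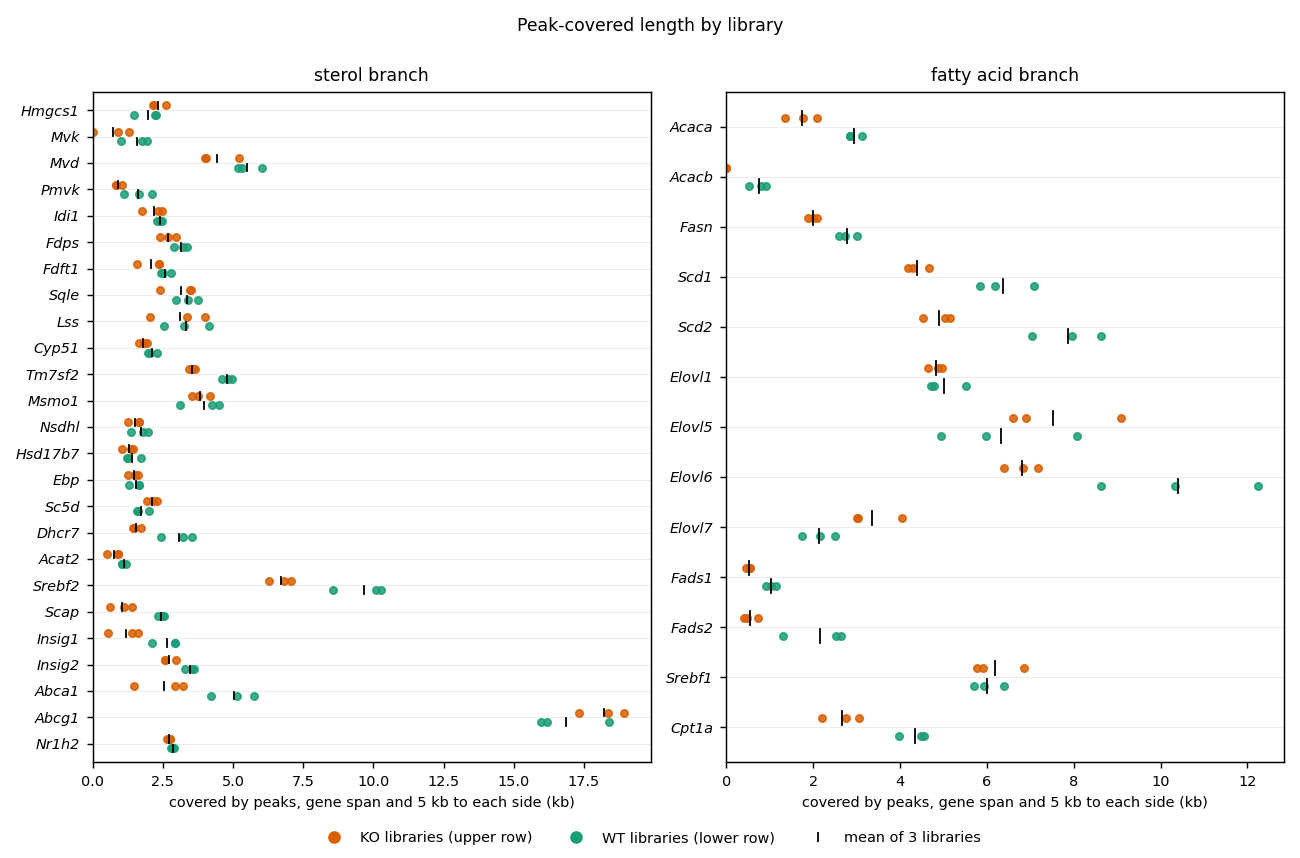
Length covered by peaks over each gene span and 5 kb to each side (kb), 1 point per library, with KO in the upper row, WT in the lower row and a bar at the mean of 3 libraries. KO points lie left of all WT points for 21 genes and right of them only for Elovl7.

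Height relative to depth was compared as well, and this comparison was chosen after seeing the data. The tallest gene-end summit was divided by the mean coverage of its library, which could be done in all 6 libraries for 32 of the genes. Over all 9746 genes measured in this way, 16.9% were lower in every KO library and 18% higher, with a median log2 ratio of 0.00, so lower genes did not outnumber higher ones on this scale. Of the 32 lipid genes, 11 (34.4%) were lower in every KO library, 2 (6.25%) were higher and 19 overlapped, with a median log2 ratio of -0.16. The 11 were Tm7sf2, Nsdhl, Hsd17b7, Dhcr7, Acat2 and Abca1 in the sterol branch and Scd1, Scd2, Elovl1, Elovl6 and Fads1 in the fatty acid branch, and the 2 were Msmo1 and Elovl7. Leaving out 1 library gave 11 to 15 lower and 2 or 3 higher genes. Dividing by mean coverage also takes out any change of the mark that all regions share. All 6 samples shared 1 immunoprecipitation, and input was not analysed. Whether coverage holds such a change was not tested.

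Scaling the fold changes by mean coverage would add 0.30 to each. The median of all gene-end regions would then be -0.43 and that of the lipid genes -0.56, with values of the authors' deposited table as the base. These medians are of best windows, whereas the all-gene median of 0.00 above is of summits, so they are unlike measures. The shift itself was read from 1309 regions with a summit near the best window in every library. After the shift, called regions lower by at least 1 on the log2 scale would number 6 (13.6%) of the 44, against 12.3% of all gene-end regions. Unscaled, they numbered 16 (36.4%) of the 44, against 27.5% of all gene-end regions, in the authors' deposited table.

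**Figure D3:**
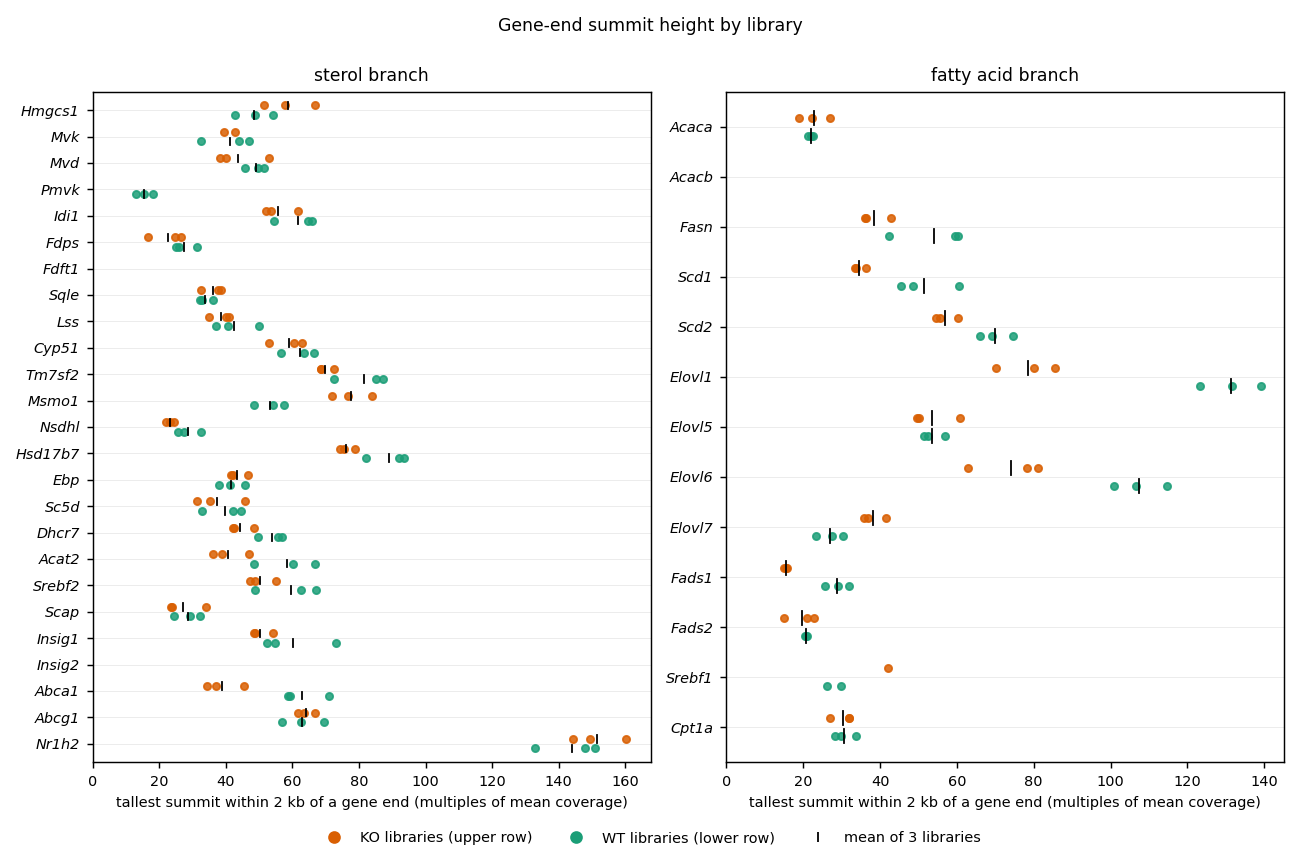
Height of the tallest peak summit within 2 kb of a gene end, in multiples of the mean coverage of the library, 1 point per library, with KO in the upper row, WT in the lower row and a bar at the mean where all 3 libraries have a value. KO points lie left of all WT points for 11 genes, among them Elovl1 and Fads1, and right of them for Msmo1 and Elovl7.

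The first steps of the sterol branch differed from gene to gene. Acat2, the thiolase that joins acetyl-CoA units, had -0.97 (FDR 0.000278) at its start in the authors' deposited table. Its peaks covered 517, 889 and 889 bp in the KO libraries, against 1062, 1207 and 1055 bp in the WT libraries, and its summit heights did not overlap either. Hmgcs1, which makes HMG-CoA and holds the sterol regulatory element shown above, had peaks over 2597, 2168 and 2186 bp in the KO libraries and 2262, 1465 and 2234 bp in the WT libraries, which overlap. Its region at the start (chromosome 13, 119689351 to 119691750, GRCm38) had 0.46 (FDR 0.585) in the authors' deposited table and was not called. The summit stood at 57.8, 51.5 and 66.7 times mean coverage in KO and 54.2, 48.8 and 42.8 times in WT, again with overlap.

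The kinases and the decarboxylase that turn mevalonate into isoprenoid units were lower or not called. Mvk, mevalonate kinase, had -0.52 (FDR 0.124) at a region shared with Mmab in the authors' deposited table, and had a gene-end peak in 2 of 3 KO and 3 of 3 WT libraries. Pmvk, phosphomevalonate kinase, had peaks over 844, 844 and 1047 bp in the KO libraries, against 1117, 1652 and 2098 bp in the WT libraries, without overlap. Its gene-end peak was found in 0 of 3 KO and 3 of 3 WT libraries, a pattern seen in 1.99% of all genes with such a peak in any library. The summits of these WT peaks stood at 15.5, 18.1 and 13.1 times mean coverage. The peaks were weak ones, and by -log10 p they exceeded only 15.1%, 19.6% and 5.53% of the peaks of their libraries. A peak in 0 KO and 3 WT libraries occurred in no other of the 38 genes, and the opposite pattern, seen in 0.346% of all genes, in none. The tested region of Pmvk lies 4.93 kb inside the gene at another annotated start and had -0.59 (FDR 0.263) in the authors' deposited table.

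Mvd, mevalonate diphosphate decarboxylase, had the lowest gene-end median of the sterol enzymes. Its peaks covered 4048, 5221 and 3996 bp in the KO libraries, against 5183, 6036 and 5326 bp in the WT libraries, and KO replicate 2 overlapped the WT range. The region at its start (chromosome 8, 122442751 to 122444700) had -1.02 (FDR 9.79e-05) in the authors' deposited table. The lower region, with -1.47 (FDR 1.77e-08) in the authors' deposited table, lies at the far end (122431351 to 122434050), 10.7 kb from the start, and is shared with Cyba. Idi1, which interconverts the isoprenoid units, had -0.74, and Fdps, which joins them to farnesyl diphosphate, had -0.71 and -0.72 at its 2 ends in the authors' deposited table. Covered length overlapped for both Idi1 and Fdps.

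The squalene steps included higher regions away from the gene ends. Fdft1, squalene synthase, had no gene-end peak in any library, and its peaks covered 2362, 2362 and 1567 bp in the KO libraries, against 2497, 2798 and 2430 bp in the WT libraries, without overlap. Its 3 inner regions, with -0.43, -0.21 and 0.37, were not called in the authors' deposited table. Sqle, squalene epoxidase, had peaks over 3515, 3479 and 2413 bp in the KO libraries and 3761, 3394 and 2967 bp in the WT libraries, which overlap. Its end region had -0.66 (FDR 0.125) in the authors' deposited table. A wide region of 6150 bp (chromosome 15, 59335651 to 59341800) had 0.95 (FDR 0.0276), with 22 of 41 windows going up, in the authors' deposited table. That region only begins within 5 kb of the gene, whose span ends at 59331193, and lies mostly beyond this flank.

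Lss, lanosterol synthase, which closes the sterol rings, had regions in both directions. Its peaks covered 2032, 3994 and 3347 bp in the KO libraries and 4147, 2527 and 3267 bp in the WT libraries, and these ranges overlap. Just before the start, a region of 450 bp (chromosome 10, 76530901 to 76531350) had -1.07 (FDR 0.00241) in the authors' deposited table, and 0 of 3 KO but 3 of 3 WT libraries had a peak there. The region over the start had -0.48 (FDR 0.0992) in the authors' deposited table. Further in, a region 5.67 kb from the start (76536901 to 76537650) had 1.29 (FDR 0.00382), the highest value of all 96 regions in the authors' deposited table, although only 1 of 3 KO and 0 of 3 WT libraries had a peak there.

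Of the demethylation, reduction and desaturation enzymes, Nsdhl, Hsd17b7, Sc5d and Dhcr7 had a start region called lower, and those of Cyp51, Ebp and Msmo1 were not called, in the authors' deposited table. Over all genes, 56% of the start regions were called lower in the authors' deposited table. Peaks of Msmo1, the methylsterol oxidase, covered 4171, 3531 and 3736 bp in the KO libraries and 4518, 4262 and 3122 bp in the WT libraries, with overlap. Its summit stood at 71.9, 76.9 and 83.9 times mean coverage in KO and 57.4, 48.5 and 54.2 times in WT, so that every KO library was higher on this scale. In the authors' deposited table the start region of Msmo1 (chromosome 8, 64732051 to 64733700) had 0.53 (FDR 0.205), the highest gene-end value of the 38 genes and not called. Hmgcs1 and Msmo1 were the only sterol genes with a positive gene-end value in the authors' deposited table.

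Cyp51, the lanosterol demethylase, had -0.64 (FDR 0.0582) and Ebp, a sterol isomerase whose region is shared with Porcn, had -0.73 (FDR 0.0885) in the authors' deposited table, so neither was called. Hsd17b7, a sterol ketone reductase whose window with an E-box is printed above, had -0.62 (FDR 0.00778) over that window in the authors' deposited table. Its summit stood at 78.9, 74.2 and 75.5 times mean coverage in KO and 82.0, 91.9 and 93.6 times in WT, without overlap. Nsdhl, the sterol dehydrogenase that acts with Msmo1, had -0.89 (FDR 0.00356) at a region shared with Cetn2, and Sc5d, a sterol desaturase, had -0.91 (FDR 0.00438) in the authors' deposited table. For Sc5d the covered length was not lower, with 1954, 2291 and 2134 bp in KO and 1997, 1597 and 1627 bp in WT.

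Nsdhl and Ebp lie on chromosome X, and peaks of Nsdhl covered 1641, 1652 and 1247 bp in KO and 1977, 1364 and 1785 bp in WT. Those of Ebp covered 1525, 1600 and 1277 bp in KO and 1309, 1666 and 1666 bp in WT. KO replicate 3, which had the most peaks on chromosome Y, was the lowest KO library for both genes in covered length. By summit height it was the highest KO library for Nsdhl, with 22.2, 23.1 and 24.5 times mean coverage in KO. For Ebp it lay between the other KO libraries, with 41.6, 46.7 and 42.2 times. The part of the X chromosome number in these values was not tested.

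Dhcr7, the reductase of the last step to cholesterol, was lower in both covered length and summit height. Its peaks covered 1729, 1470 and 1436 bp in the KO libraries, against 2445, 3236 and 3547 bp in the WT libraries. The regions at its start had -1.11 (FDR 2.01e-05) and -0.78 (FDR 0.0026) in the authors' deposited table and are shared with Nadsyn1. A further region, 5.91 kb inside the gene at another annotated start, had -0.94 (FDR 0.00341) in the authors' deposited table. Tm7sf2, a sterol reductase, had -0.83 (FDR 0.00266) in the authors' deposited table, but that region lies at its far end, shared with Fau and Znhit2, and no tested region covered its start.

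The control genes of the sterol branch were called lower at 3 of 3 gene-end regions, against 55.3% of all gene-end regions, in the authors' deposited table. Srebf2, which encodes the SREBP that drives sterol synthesis, had peaks over 7051, 6280 and 6799 bp in the KO libraries, against 10264, 8574 and 10102 bp in the WT libraries. Its start region (chromosome 15, 82145551 to 82148850) had -1.31 (FDR 1.92e-06) in the authors' deposited table, with 4 of 22 windows going down. An inner region of 3150 bp, 19.1 kb from the start, had -1.42 (FDR 2.29e-06) in the authors' deposited table, with 21 of 21 windows going down, so the inner change was the broader of the pair. Its summit heights overlapped, at 48.6, 55.0 and 47.4 times mean coverage in KO and 48.9, 67.2 and 62.6 times in WT.

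Scap, the SREBP escort, had -1.03 (FDR 0.00199) at its start, over the printed E-box, and -1.72 (FDR 4.78e-12) at a region centred at -3.26 kb from the start (chromosome 9, 110329201 to 110330850) in the authors' deposited table. Peaks of Scap covered 1110, 1387 and 611 bp in the KO libraries, against 2318, 2508 and 2530 bp in the WT libraries, without overlap. The summit heights of Scap overlapped. Insig1, which holds SCAP back when sterols are high, had peaks over 566, 1624 and 1386 bp in the KO libraries, against 2933, 2922 and 2111 bp in the WT libraries. In covered length all KO values of Insig1 lay below all WT values. Its summit heights overlapped, at 48.6, 48.5 and 54.2 times mean coverage in KO and 54.9, 73.2 and 52.5 times in WT. The start region of Insig1 (chromosome 5, 28070101 to 28072650), which spans the printed E-box window, had -1.19 (FDR 5.17e-05) in the authors' deposited table.

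Insig2, the second INSIG gene, had no gene-end peak in any library. Its peaks covered 2577, 2984 and 2583 bp in the KO libraries, against 3285, 3552 and 3606 bp in the WT libraries, without overlap. The region behind this lies 4.49 kb inside the gene (chromosome 1, 121326751 to 121329450), at 2 other annotated starts, and had -1.31 (FDR 2.67e-06) in the authors' deposited table.

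The export genes had 3 of 4 gene-end regions called lower, against 55.3% of all gene-end regions, and Abcg1 had 2 inner regions called higher in the authors' deposited table. Abca1, which moves cholesterol to lipid-poor apolipoprotein, had peaks over 2937, 3219 and 1484 bp in the KO libraries, against 5153, 5751 and 4199 bp in the WT libraries. Its summit stood at 45.4, 34.5 and 37.0 times mean coverage in KO and 59.4, 70.9 and 58.6 times in WT, and neither measure overlapped. The start region of Abca1 had -1.04 (FDR 1.54e-06) in the authors' deposited table. Deep in the gene, a region of 450 bp 45.3 kb from the start (chromosome 4, 53114401 to 53114850) had -1.87 (FDR 4.83e-05) in the authors' deposited table and a peak in 0 of 3 KO and 3 of 3 WT libraries.

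Abcg1, a second sterol exporter, carried the most peak length of the 38 genes. Its peaks covered 17316, 18925 and 18343 bp in the KO libraries and 18385, 15951 and 16190 bp in the WT libraries, and only WT replicate 1 reached into the KO range. The end region (chromosome 17, 31057651 to 31061550) had -1.09 (FDR 0.00504) with 4 of 26 windows going down in the authors' deposited table. The 2 regions that follow it inside the gene (31063651 to 31065600 and 31065751 to 31069800) had 0.82 (FDR 0.0042) and 0.76 (FDR 0.0147) in the authors' deposited table. Nr1h2, which encodes the LXR form found in most cells, had -0.72 (FDR 0.00364) at its start and -0.51 (FDR 0.146) at its other end, shared with Pold1, in the authors' deposited table.

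In the fatty acid branch, the genes of malonyl-CoA production and fatty acid synthase had 1 region called lower in Acaca, 1 in Fasn and 0 in Acacb in the authors' deposited table. Acaca, acetyl-CoA carboxylase of the cytosol, had -0.54 (FDR 0.15) at a gene-end region shared with Tada2a in the authors' deposited table. The annotated start of Acaca used here lies inside the gene span, and a region centred at -15.5 kb from that start had -1.06 (FDR 2.23e-05) in the authors' deposited table. Peaks of Acaca covered 1763, 1354 and 2098 bp in KO and 2846, 3126 and 2850 bp in WT, without overlap, while its summit heights overlapped. Acacb, the carboxylase of the mitochondrial surface, had peaks over 0 bp in all 3 KO libraries, against 800, 924 and 530 bp in the WT libraries. The single region behind it, 10.5 kb inside the gene, had -0.87 (FDR 0.0552) and was not called in the authors' deposited table. Fasn, fatty acid synthase, had -0.88 (FDR 0.000269) in the authors' deposited table, with 19 of 19 windows going down, and its region is shared with Ccdc57. The summit heights of Fasn overlapped.

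Both stearoyl-CoA desaturase genes of the fatty acid branch, whose enzymes make monounsaturated fatty acids, were lower. Scd2 had peaks over 5155, 5026 and 4521 bp in the KO libraries, against 7949, 8635 and 7038 bp in the WT libraries. Its summit stood at 55.7, 60.3 and 54.7 times mean coverage in KO and 65.9, 74.7 and 69.0 times in WT, so neither measure overlapped. The end region of Scd2 (chromosome 19, 44292151 to 44296950) had -1.51 (FDR 4.82e-09) in the authors' deposited table, with 32 of 32 windows going down. Scd1 had 3 gene-end regions, with -1.65, -0.93 and -0.31 in the authors' deposited table, the last of them not called, and its summit stood at 33.5, 36.2 and 33.9 times mean coverage in KO and 45.4, 48.5 and 60.6 times in WT.

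The 4 elongase genes of the fatty acid branch went different ways. Elovl6, which lengthens palmitate to stearate, had peaks over 6394, 7180 and 6831 bp in the KO libraries, against 12239, 8629 and 10324 bp in the WT libraries. Its summit stood at 78.4, 62.9 and 81.3 times mean coverage in KO and 101, 107 and 115 times in WT, and again the groups did not overlap. The start region of Elovl6 (chromosome 3, 129531751 to 129536400) had -2.21 (FDR 3.14e-13), the lowest value of all 96 regions in the authors' deposited table, with 15 of 31 windows going down. Of its 6 inner regions, 4 were called lower, with -0.84 to -1.16, and 1 was called higher in the authors' deposited table. The higher one (129588301 to 129588750), 56.1 kb from the start, had 0.82 (FDR 0.0178) in the authors' deposited table, and all 3 KO but 0 of 3 WT libraries had a peak there.

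Elovl7, which lengthens saturated and polyunsaturated chains, was the gene with the highest covered length in KO relative to WT. Its peaks covered 3026, 3010 and 4054 bp in the KO libraries and 2508, 1748 and 2167 bp in the WT libraries, without overlap. The summit at its start stood at 41.6, 35.8 and 37.0 times mean coverage in KO and 27.6, 30.4 and 23.2 times in WT, also without overlap. The start region nevertheless had -0.45 (FDR 0.362) and was not called in the authors' deposited table, whose value is that of the best window. A region 14.4 kb inside the gene (chromosome 13, 108228301 to 108229350) had 1.14 (FDR 1.38e-06) in the authors' deposited table, with 7 of 7 windows going up and a peak in 3 of 3 KO and 2 of 3 WT libraries. A region in the flank beyond the gene (108289201 to 108289650) had 1.03 (FDR 0.000468) in the authors' deposited table and a peak in 3 of 3 KO and 1 of 3 WT libraries.

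Elovl5, an elongase of polyunsaturated chains whose E-box window is printed above, had 0 of 7 regions called in the authors' deposited table. Its peaks covered 6595, 9085 and 6896 bp in KO and 8078, 4946 and 5976 bp in WT, and these ranges overlap. The regions before and after its start had -0.45 (FDR 0.0879) and 0.43 (FDR 0.894) in the authors' deposited table. Elovl1, an elongase of very long chains, had -1.05 (FDR 3.35e-07) at its start in the authors' deposited table. Its summit, among the tallest of these genes, stood at 80.0, 70.3 and 85.4 times mean coverage in KO and 123, 132 and 139 times in WT, without overlap, while its covered length overlapped.

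**Figure D4:**
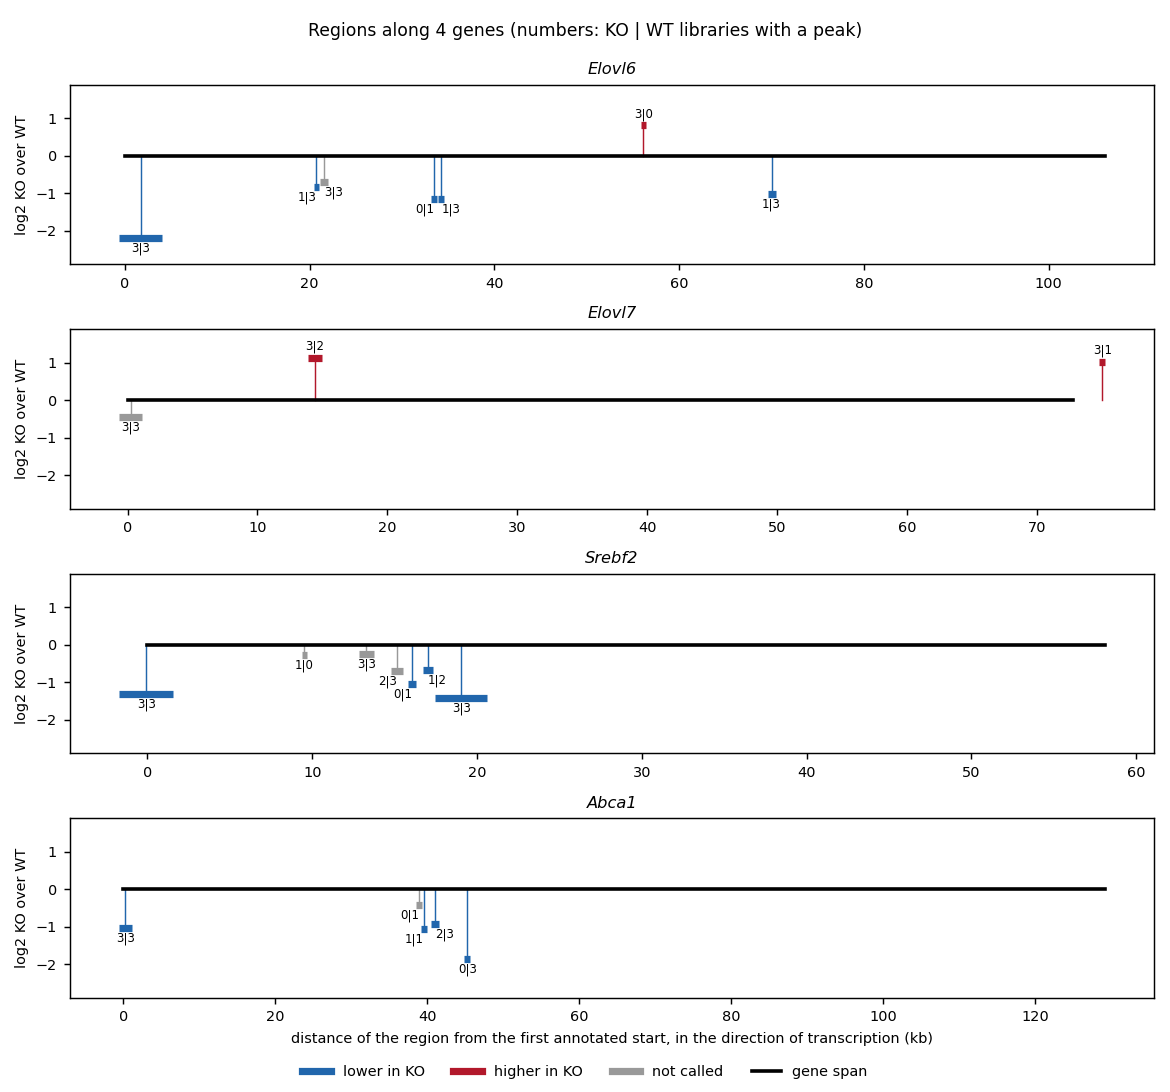
Tested regions along Elovl6, Elovl7, Srebf2 and Abca1, placed by distance from the first annotated start (kb) and at their log2 fold change (KO over WT) in the authors' deposited table, with the number of KO and WT libraries that have a peak written at each. Elovl6 and Elovl7 differ in that the inner regions of Elovl6 are mostly lower and the 2 called regions of Elovl7 are higher, and regions of Srebf2 and Abca1 are all negative.

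The desaturases of polyunsaturated chains, Fads1 and Fads2, lie near each other on chromosome 19. Fads1 had peaks over 536, 460 and 556 bp in the KO libraries, against 1025, 920 and 1149 bp in the WT libraries. Its summit stood at 15.1, 15.7 and 15.6 times mean coverage in KO and 29.1, 25.6 and 32.0 times in WT, the lowest ratio of the 32 genes with a log2 value of -0.90. The end region of Fads1 (10182751 to 10183950) had -1.26 (FDR 7.93e-07) in the authors' deposited table. Fads2 had peaks over 738, 484 and 399 bp in KO and 2643, 1295 and 2535 bp in WT, without overlap, while its summit heights overlapped. Its start regions had -1.07 and -0.75 in the authors' deposited table, the second not called, and a region 31.0 kb inside the gene had -1.82 (FDR 0.000253) in the authors' deposited table.

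Srebf1, which encodes the SREBP form that drives fatty acid synthesis, had 0 of 3 regions called in the authors' deposited table. Its peaks covered 5782, 6856 and 5919 bp in the KO libraries and 6388, 5934 and 5707 bp in the WT libraries, with overlap. All 3 regions lie at annotated starts and had -0.40, -0.41 and -0.49 in the authors' deposited table. The difference between Srebf1 and Srebf2 was not tested. Cpt1a, the gate for fatty acid entry into mitochondria for oxidation, had peaks over 2756, 2209 and 3050 bp in the KO libraries, against 4477, 3982 and 4549 bp in the WT libraries, without overlap. Its 2 start regions had -1.40 (FDR 6.91e-07) and -0.89 (FDR 0.00398) in the authors' deposited table, while its summit heights overlapped.

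A further 49 genes of the same pathways, among them genes of fatty acid activation, oxidation, elongation and esterification and of sterol control, had 51 gene-end regions. Of these, 39 (76.5%) were called lower and 0 higher, against 55.3% and 6.17% of all gene-end regions, in the authors' deposited table. Away from the gene ends, 23 of their 53 regions (43.4%) were called lower and 11 (20.8%) higher, against 38.4% and 16.8% of all such regions, in the authors' deposited table. None of the 51 gene-end regions was higher at an unadjusted p under 0.05 in the authors' deposited table. Acsl6, a fatty acyl-CoA synthetase, had -2.44 and Hacd1, a dehydratase of the elongation cycle, had -1.93 in the authors' deposited table. The esterifying enzymes Dgat1 and Dgat2 had -1.78 and -1.89 at their lowest end regions in the authors' deposited table. Slc25a20, the carnitine carrier that follows Cpt1a, had -1.31 and Soat1, which esterifies cholesterol, had -1.02 in the authors' deposited table. Soat2, the second cholesterol esterifying enzyme, had 0.35 and 0.43, neither called, in the authors' deposited table. These genes were singled out after their values were seen.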

How the data were processed

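For every ChIP library the authors deposited a peak list called on paired-end fragments, used throughout, and another called on single reads. Both have the MACS2 layout, in which the deposited values are a score, the fold over background (a ratio) and the -log10 of p and of q, at least 3.00 for q. The authors' deposited table is built on 150 bp windows and lists the p-value and FDR of a region, the log2 change of its best window and its window counts. It has no value per library, so nothing was refitted. The authors' deposited list of its 24128 called regions gives their spans and a score. The submitters' processing notes name MACS2 2.2.6, Bowtie2 2.3.5.1, cutadapt 2.8, deepTools 3.3.2 and bcl2fastq 2.20.0.422, with mm10 and GRCm38 as builds. Neither they nor the labels say which program and scaling made the table or whether input was used.

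Spans of 16571 other regions were rebuilt from single-read peaks (98.8% of the listed spans came out exactly), 209 were placed by their best window and 1 was not located. Gene spans are RefSeq GRCm38.p6, without exons, and annotated starts are from its promoter windows. Peak height and mean coverage (the lowest background of at least 50 peaks) were solved from fold and -log10 p for 100% of peaks within 0.01. The caller had scaled WT replicates 1 and 2 by 0.890 and 0.922. The shift of 0.30 is the log2 coverage ratio of -0.78 set against an offset of 0.49 in 1309 regions with summits in every library. These steps were tested on simulated data. Counting error is not included. Python 3.11.15, numpy 2.4.6, pandas 2.3.3, scipy 1.17.1 and matplotlib 3.10.9 were used.

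The members and lists were chosen with earlier results of these data known. Values per library are given for the 4 lowest and 2 highest genes per branch by gene-end median, genes with a higher region, without a gene-end region, or with a gene-end peak in 1 genotype only; others named with values were added after their values were seen. Alternatives were other peak lists, thresholds, windows and scaling, left-out libraries and a replicate block. All columns were mapped to samples. A further marker gene is not reported here.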

Additional observations from a re-analysis of the deposited data

How the results depend on the processing

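Under the alternatives, 168 planned and 35 added recomputations kept the direction and stayed within the limit set for each, 21 planned and 7 added moved past it, and 0 reversed. Requiring a log2 fold change of at least 1 in size left 16 lower gene-end regions in all and 9 in the sterol branch. Taking the gene span and 5 kb instead gave 47 lower and 7 higher regions in all, 29 and 4 in the sterol branch, and 18 and 3 in the fatty acid branch. In covered length, the genes with every KO library above every WT library numbered 2 in all and 1 in the sterol branch with single-read peaks. With gene-end windows of 1 kb or 2 kb they numbered 0 in all and 0 in the fatty acid branch. With 1 library left out they ranged from 1 to 4 in all, 0 to 2 in the sterol branch and 1 to 2 in the fatty acid branch. The difference in fatty acid genes with a gene-end peak, KO minus WT, was -0.667 with single-read peaks and -0.333 where at least 50% of a peak had to lie in the window (permutation p = 1 in both, exact). For summit height over coverage, the genes higher in every KO library ranged from 1 to 2 in each branch with 1 library left out. The cause of these changes was not tested. Correlation over the genes did not show pairing of the libraries by replicate number. It cannot exclude pairing, because deviations from the mean of 3 libraries are bound to each other. These deviations correlated at -0.21 to 0.02 for same-numbered libraries, and 0 of 3 KO libraries correlated best with its own number. With a replicate block the summit heights gave 6 higher genes in all and 5 in the sterol branch, covered length gave 24 lower genes, and the difference in covered length of -28048 bp had an exact permutation p = 0.25, the smallest that 3 pairs allow. The KO libraries were the shallower ones, and the part of depth in the peak lists was not tested. With the 39264 strongest peaks of every library the difference in covered length was -25505 bp. No library could be left out of the authors' deposited table, and a region there is judged by its best window.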
